A study of Homo sapiens with 6 samples.

Results

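The 41 genes described here encode proteins that take a cell from G1 into S phase and copy its DNA. They were chosen by name, as a list of S-phase genes, and all 41 passed the filter on low counts, among 20442 genes tested and 61014 on file. LncRNA sequencing was performed on MDA-MB-231 cells, a line from a human breast cancer of the triple-negative type, made resistant to paclitaxel (PTX), a drug that stabilises microtubules. Live cells were sorted by FACS on aldehyde dehydrogenase (ALDH) activity into ALDH+ breast cancer stem-like cells (BCSC) and ALDH- cells (non-BCSC), each with 3 libraries. By the study's description both groups carry the resistance and come from 1 line, though the titles of the non-BCSC libraries name neither. Nothing in the labels says whether the libraries of a group came from separate cultures, and p-values measure only the spread between these libraries.

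In G1, cyclin D and cyclin E kinases release E2F transcription factors from the RB protein, and E2F activates many of the genes needed for S phase. The origin recognition complex, CDC6 and CDT1 load the ring of MCM2 to MCM7 onto DNA, a step called licensing, and CDC45 and GINS then turn the ring into an active helicase. Polymerases, the clamp PCNA with its loader RFC, and nucleotide-making enzymes carry out the synthesis, while CAF-1 places histones on the new DNA. Their RNAs are more abundant in dividing cells than in resting cells.

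E2F sites lie in the promoters of many replication genes, and stretches from promoters of 7 members are shown as examples. All 7 hold a match to such a site, and MCM3 holds a further match outside its stretch. Other members with a match are not shown. The windows ran from 250 bases before the RefSeq transcription start (GRCh38.p14) to shortly after it. They were searched on both strands for 4 forms of the E2F site, TTTCCCGC, TTTGGCGC, TTTCGCGC and TTTGCCGC, and capitals mark a match on either strand (overlapping matches are run together). Each stretch is written 5′ to 3′ along the gene's strand.
E2F1, chr20:33686386-33686430, minus strand: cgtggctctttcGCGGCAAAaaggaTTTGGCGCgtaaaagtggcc
E2F2, chr1:23531257-23531286, minus strand: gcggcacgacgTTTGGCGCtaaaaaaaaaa
CDT1, chr16:88803743-88803772, plus strand: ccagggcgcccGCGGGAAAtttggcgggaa
MCM2, chr3:127598402-127598431, plus strand: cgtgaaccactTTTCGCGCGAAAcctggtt
MCM3, chr6:52284898-52284927, minus strand: cggatggtacgTTTCCCGCcaccgcggggc
MCM6, chr2:135876513-135876608, minus strand: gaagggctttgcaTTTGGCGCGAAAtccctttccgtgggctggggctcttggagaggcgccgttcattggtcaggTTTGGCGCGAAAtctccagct
PCNA, chr20:5126663-5126692, minus strand: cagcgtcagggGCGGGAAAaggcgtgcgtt

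The RefSeq promoter table held a window for 34 of the 41 members, and 18 of the 34 (52.9%) contained a match. Counted the same way, 3.99% of all 27305 genes with a window did, and 3.31% of all 35116 windows. The 7 members with no window in the table were CCND1, CCNE2, E2F8, MCM4, MCM5, GINS4 and RPA2. Of the members shown, each of which holds a match, E2F1, E2F2, CDT1 and MCM2 were higher in BCSC, MCM3 was lower, and MCM6 and PCNA did not pass the test. Among the 18 members with a match, 13 were higher and 1 was lower, with a median log2 fold change of 0.73 (BCSC over non-BCSC, as throughout). Among the 16 without one, 9 were higher and 1 was lower, with a median of 0.49. Whether a match goes with the difference was not tested. A match is a description of these letters, not a shown binding site.

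To determine how the G1/S and replication genes differed between the sorted fractions, the transcript counts of each gene were summed and compared between BCSC and non-BCSC. Most members were higher in BCSC, by modest amounts. At an adjusted p under 0.05 (edgeR quasi-likelihood test, Benjamini-Hochberg over all genes), 27 members were higher in BCSC, 2 (MCM3 and RFC4) were lower and 12 did not pass. Of all genes tested, 15.3% were higher and 14.6% lower by the same criterion. With a fold above 2 asked as well, 12 members were called higher and 0 lower, against 8.85% and 11.3% of all genes. No member was lower by a fold of 2 at any p, the lowest log2 fold change being -0.59, and DESeq2 also called 0 lower.

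Each member averaged at least 100 counts per library (117 to 5752), which many of the genes tested do not. Of the 10471 genes that reached this mean, 27.7% were higher and 10.2% lower, and 15.1% were called higher and 3.80% lower. The median log2 fold change was 0.70 over the members, with a range of -0.59 to 1.92, and -0.05 over all genes. Where at least 10 counts in every library were asked, the medians were 0.55 over the members and 0.01 over all genes kept. With a mean of at least 500 counts they were 0.36 over the 29 members left and 0.02 over all genes kept. The 3 BCSC values lay wholly above the 3 non-BCSC values for 33 members, wholly below for 3, and overlapped for CCNE2, CDC45, PRIM1, RFC2 and SLBP. In 52.1% of all genes the groups did not overlap, 24.2% with BCSC higher. These shares were not worked out for the 10471 better counted genes. Summed over the 41 members, BCSC libraries held 4603, 4460 and 4081 CPM (counts scaled to TMM library sizes) and non-BCSC libraries held 3412, 3182 and 3047. In these bulk libraries, fewer cells expressing a gene and less of its RNA per cell cannot be told apart.

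**Figure D1:**
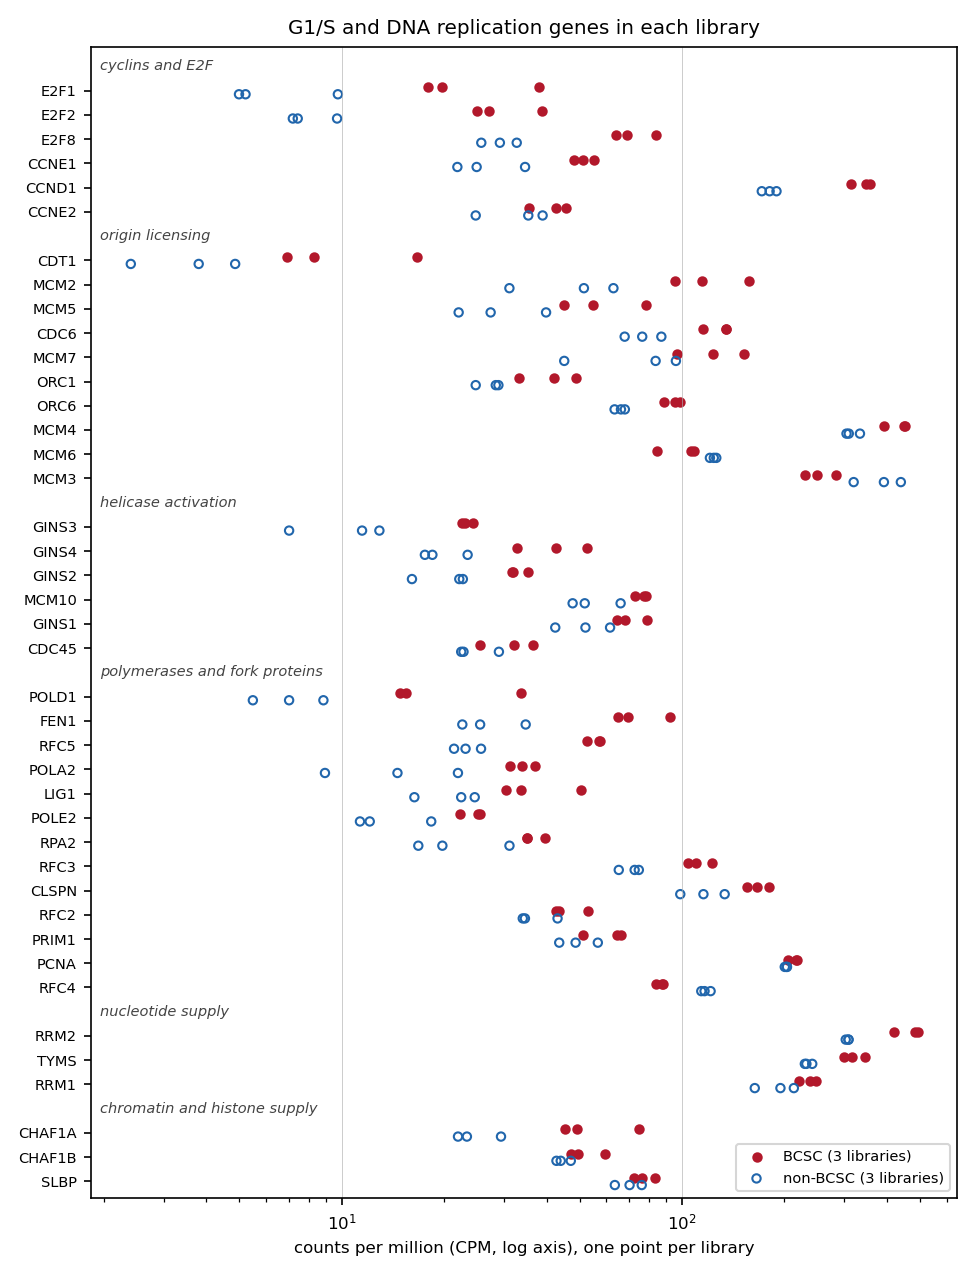
Level of each of the 41 genes in each library, in CPM on a log axis, with filled points for the 3 BCSC libraries and open points for the 3 non-BCSC libraries. Genes are grouped by role and ordered by fold change within a role, and for 33 of them all filled points lie to the right of all open points.

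Library-wide features differ between the fractions and touch these values. Total counts were 15925943 to 21215352 in BCSC and 9898588 to 12263667 in non-BCSC, so a count of 0 allowed up to 0.141 to 0.303 CPM (3 counts, counting error only). The 407 olfactory receptor genes, which breast cells should hardly transcribe, summed to 41.2, 57.5 and 153.5 CPM in BCSC and 544, 701 and 1166 CPM in non-BCSC. The mesenchymal markers VIM, CD44, AXL and CAV1 were abundant in all 6 libraries, the lowest being AXL at 142 CPM. KRT18, an epithelial keratin listed as present in this line, had 15 to 52 counts in BCSC and 108 to 151 in non-BCSC. It was lower in BCSC (log2 fold change -2.56, adjusted p = 0.00489, edgeR). ESR1, PGR, EPCAM and CDH1 did not exceed 19.1 CPM in a library, and ERBB2 lay between 54.7 and 85.7 CPM. PGR was at 0.33 to 1.39 CPM in BCSC and 7.26 to 19.1 CPM in non-BCSC (-4.19, adjusted p = 0.00218, edgeR). ESR1 and CDH1 did not pass (-1.19 and -0.98). Of the markers of other cells, PTPRC, a leukocyte gene, ranged from 4 to 19 counts in the BCSC libraries and from 160 to 256 in the others, ALB had 10 to 15 and 34 to 85, COL1A1 had 58 to 169 and 60 to 151, and PECAM1 was not analysed here. Of the ALDH genes, ALDH1A1 reached 6 counts at most in BCSC and 28 to 38 in non-BCSC, which is opposite to the sort. ALDH1A2 and ALDH3A1 were also lower in BCSC (log2 fold changes -2.70 and -1.49, adjusted p = 0.0257 and 0.0484, edgeR). ALDH2 had -0.93 and did not pass. Only ALDH1A3 was higher, with 25.6 to 33.4 CPM in BCSC and 12.1 to 23.5 CPM in non-BCSC, and it did not pass (0.77, adjusted p = 0.0577, edgeR). The part of the marker differences in the results was not tested. Fold changes after taking off a background in proportion to the olfactory signal, and after correcting each library for GC content and length, stand beside many of the members below, and in the plot of fold changes for all 41.

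Cyclins and E2F factors held the members with the largest differences. Of the 6 members, 5 were higher in BCSC, 3 of them called, and the group's median log2 fold change was 1.12. E2F1, an activator of S-phase genes, was at 37.9, 19.8 and 17.9 CPM in BCSC and 9.74, 5.21 and 4.99 CPM in non-BCSC. The groups did not overlap, and BCSC library 1 was the highest of the 6 (log2 fold change 1.92 ± 0.39 SE, 3.78-fold, adjusted p = 0.00782, edgeR). Without that library the log2 fold change was 1.5, and after the GC correction it was 0.77, and E2F1 passed the test in both.

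E2F2, the second activator of the list, was at 38.8, 27.1 and 24.9 CPM in BCSC and 7.18, 7.42 and 9.69 CPM in non-BCSC. It was 3.74-fold higher in BCSC (log2 fold change 1.90 ± 0.27 SE, adjusted p = 0.00170, edgeR), and the lowest BCSC library was well above the highest non-BCSC library. E2F8, which in contrast represses E2F targets late in S phase, was at 64.1, 84.2 and 68.7 CPM in BCSC against 32.7, 25.7 and 29.2 CPM in non-BCSC. It rose 2.48-fold (log2 fold change 1.31 ± 0.17 SE, adjusted p = 0.00108, edgeR), so activators and a repressor of the family were higher together.

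CCND1 encodes cyclin D1, which with CDK4 or CDK6 starts the phosphorylation of RB. It was the most counted member of this group, at 356, 347 and 315 CPM in BCSC and 190, 181 and 172 CPM in non-BCSC, with little spread inside either group. The log2 fold change was 0.91 ± 0.10 SE, under the fold of 2 (adjusted p = 0.000516, edgeR). CCND1 has a GC content of 61.9%, and the GC correction turned its value to -0.28 (adjusted p = 0.321, edgeR). Its level per kb of transcript was 89.9 ± 11 CPM in BCSC and 104 ± 87.4 CPM in non-BCSC (SD, n = 3), the reverse order, and non-BCSC library 2 set this: there 976 counts fell on the 476-base transcript CCND1-205, against 1061 on the full-length CCND1-201. CCNE1 (cyclin E1, partner of CDK2) was higher with a log2 fold change of 0.93 ± 0.20 SE. CCNE2 (cyclin E2) had 0.32 ± 0.21 SE and did not pass the test (adjusted p = 0.275, edgeR). It shares 1629 exonic bases with INTS8 on the opposite strand, a gene with 251% of its counts, and had the lower GC content of the pair, 39.8% against 51.2%. After the GC correction CCNE2 passed, at 1.48 (adjusted p = 0.000679, edgeR).

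Origin licensing factors were split. Of the 10 members, 7 were higher in BCSC, 1 (MCM3) was lower and 2 (MCM6, MCM7) did not pass, with a median log2 fold change of 0.66. CDT1, which brings the MCM ring to the origin, was the least counted member. Its levels were 16.6, 8.28 and 6.89 CPM in BCSC and 3.80, 4.86 and 2.40 CPM in non-BCSC. The call was weak: the log2 fold change was 1.52 ± 0.48 SE (adjusted p = 0.0385, edgeR), it was lost when any library other than BCSC 3 was left out (adjusted p from 0.0548 without non-BCSC 2 to 0.207 without BCSC 1, edgeR), and the GC correction brought the value to -0.07 (GC content 65.5%). CDC6, the ATPase that works with CDT1, was at 134, 135 and 115 CPM in BCSC and 76.4, 67.9 and 87.0 CPM in non-BCSC (log2 fold change 0.73 ± 0.13 SE, adjusted p = 0.00450, edgeR). It passed the test under every alternative tried. The origin recognition subunits ORC1 and ORC6 had log2 fold changes of 0.60 ± 0.20 and 0.52 ± 0.12 SE, of which ORC1 was close to the threshold (adjusted p = 0.0456, edgeR) and did not pass without any 1 of 5 libraries (all but BCSC 3), with adjusted p of up to 0.159, and ORC6 did not pass without BCSC 2 (adjusted p = 0.0585, edgeR). ORC1 passed neither after the GC correction nor after removal of the background (0.45 and 0.52, adjusted p = 0.0920 and 0.0816, edgeR). ORC6 passed at 1.0 and missed the threshold at 0.30 (adjusted p = 0.00143 and 0.0902, edgeR).

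In the uncorrected fit the 6 subunits of the MCM ring, which act in equal numbers, did not move together. After the GC correction all but MCM3 had log2 fold changes of 0.14 to 0.44. MCM2 was at 158, 115 and 95.6 CPM in BCSC and 62.9, 31.1 and 51.5 CPM in non-BCSC. It was 2.53-fold higher in BCSC (log2 fold change 1.34 ± 0.26 SE, adjusted p = 0.00635, edgeR), and 0.43 after the GC correction (adjusted p = 0.108, edgeR). MCM4 was at 452, 448 and 392 CPM in BCSC against 334, 309 and 305 CPM in non-BCSC, the highest level of any licensing gene in BCSC both in CPM and per kb of transcript (117 ± 13.7 CPM per kb, SD, n = 3). Its log2 fold change was 0.45 ± 0.10 SE (adjusted p = 0.0102, edgeR). It was 0.44 after the GC correction (adjusted p = 0.0424, edgeR) and 0.21 after removal of the background (adjusted p = 0.105, edgeR).

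MCM3 went the other way. It was at 285, 249 and 229 CPM in BCSC and 440, 392 and 320 CPM in non-BCSC, so that every BCSC library was below every non-BCSC library. The log2 fold change was -0.59 ± 0.13 SE (adjusted p = 0.0116, edgeR), and it stayed negative after the GC correction (-0.83) and after removal of the background (-0.83), passing the test in both. It missed the threshold without BCSC 2, non-BCSC 1 or non-BCSC 2 (adjusted p = 0.0612, 0.0564 and 0.0587, edgeR), at log2 fold changes of -0.55, -0.43 and -0.53. MCM6 was at 106, 108 and 84.7 CPM in BCSC and 124, 126 and 121 CPM in non-BCSC. These groups did not overlap either, but the log2 fold change of -0.31 ± 0.12 SE did not pass (adjusted p = 0.0844, edgeR), and its sign was not fixed: it was 0.38 after the GC correction, and -0.54 and past the test after removal of the background.

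MCM5 had a log2 fold change of 0.99 ± 0.27 SE (adjusted p = 0.0212, edgeR) and 0.14 after the GC correction, and it did not pass without BCSC 1, non-BCSC 2 or non-BCSC 3 (0.74, 0.98 and 0.84). MCM7 had 0.73 ± 0.26 SE and missed the threshold (adjusted p = 0.0603, edgeR). It passed without BCSC 3 (0.87) or without non-BCSC 1 (1.0). After the GC correction and after removal of the background MCM7 was 0.14 and 0.52 and did not pass (adjusted p = 0.665 and 0.159, edgeR). The ratio of MCM2 to MCM3 counts was 0.555, 0.460 and 0.417 in the BCSC libraries against 0.143, 0.0793 and 0.161 in non-BCSC, a value taken inside each library and so free of the scaling between libraries. The ratios of MCM4, MCM5 and MCM7 to MCM3 were also higher in all BCSC libraries, while that of MCM6 to MCM3 overlapped. These ratios, and those of the other complexes below, were chosen after the values were seen.

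**Figure D2:**
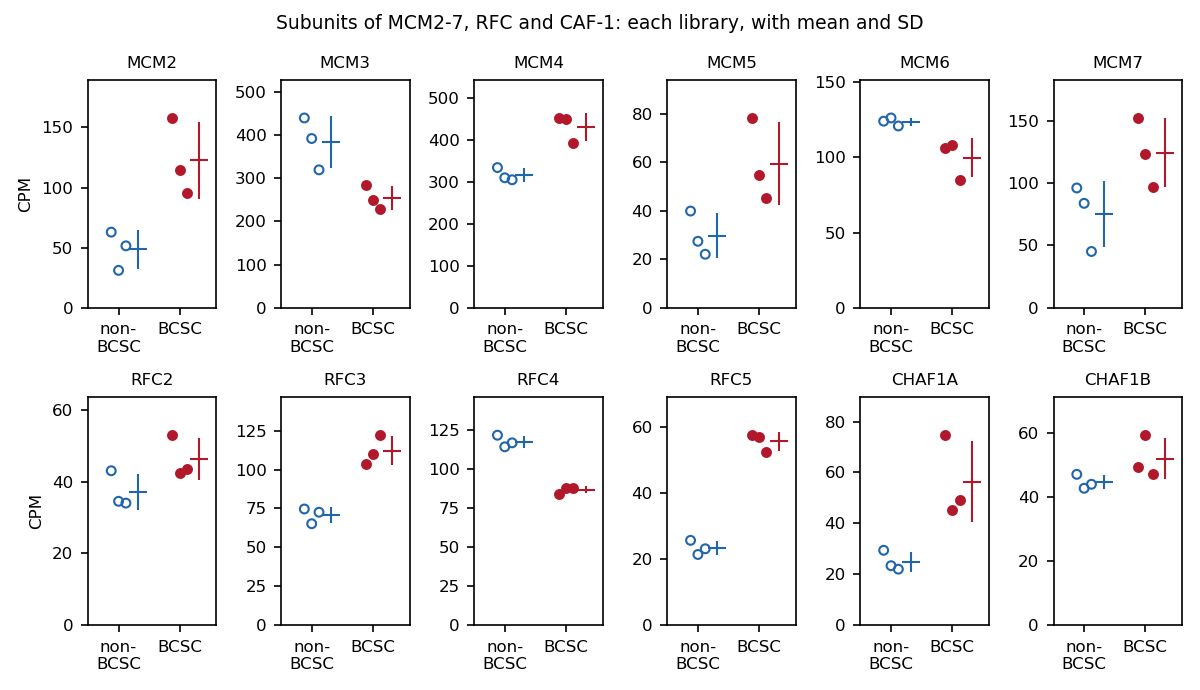
CPM of the subunits of the MCM ring, the clamp loader RFC and the histone chaperone CAF-1 in each library (points), with the mean and SD of each group beside them (n = 3); each panel starts at 0 and has its own scale. MCM3, MCM6 and RFC4 have all BCSC points below the non-BCSC points, RFC2 overlaps, and in the other 8 panels the BCSC points lie higher.

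Helicase activation genes were higher in 4 of 6 cases, 2 of them called, with a median log2 fold change of 0.58. The GINS complex has 4 subunits. GINS3 was at 24.3, 22.5 and 23.0 CPM in BCSC and 11.5, 12.9 and 7.0 CPM in non-BCSC. The BCSC values were almost equal, and the log2 fold change was 1.15 ± 0.28 SE (adjusted p = 0.0152, edgeR); it fell to 0.95 without non-BCSC 3, and missed the threshold without BCSC 1 or BCSC 2 (adjusted p = 0.0556 and 0.0544, edgeR).

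GINS4 was at 52.7, 42.5 and 32.7 CPM in BCSC and 23.4, 18.5 and 17.6 CPM in non-BCSC (log2 fold change 1.11 ± 0.23 SE, adjusted p = 0.00830, edgeR), and at 0.92 without BCSC 1 it was no longer above a fold of 2, though past the test. GINS2 was at 35.2, 31.8 and 31.7 CPM in BCSC and 22.7, 16.1 and 22.2 CPM in non-BCSC (0.70 ± 0.21 SE, adjusted p = 0.0329, edgeR), and among fits without 1 library it passed only where non-BCSC 1 was left out. It was 0.23 after the GC correction and 0.54 after removal of the background, past the test in neither (adjusted p = 0.395 and 0.0937, edgeR). GINS1, the subunit with the highest level per kb in this group (22.9 ± 2.71 CPM per kb in BCSC and 18.1 ± 5.59 in non-BCSC, SD, n = 3), was at 64.2, 78.7 and 68.2 CPM against 42.4, 52.0 and 61.5 CPM. It separated the groups by a narrow margin and did not pass (0.44 ± 0.17 SE, adjusted p = 0.0764, edgeR), but passed at 0.97 after the GC correction (adjusted p = 0.00191, edgeR). MCM10, which helps to activate the helicase, had 0.46 ± 0.15 SE (adjusted p = 0.0475, edgeR) and did not pass when any library but non-BCSC 1 was left out (adjusted p of 0.0999 to 0.128, edgeR). CDC45, an essential part of the active helicase, had 0.34 ± 0.22 SE and its groups overlapped.

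Polymerase and fork genes were higher in 8 of 13 cases, 4 of them called, with RFC4 lower. POLD1, the catalytic subunit of polymerase delta, was at 33.5, 15.4 and 14.9 CPM in BCSC and 8.83, 5.48 and 7.0 CPM in non-BCSC. BCSC library 1 stood above the other 2, and the log2 fold change of 1.58 ± 0.38 SE (adjusted p = 0.0147, edgeR) was 1.09 without it and did not pass (adjusted p = 0.0767, edgeR); it did not pass without non-BCSC 2 either (1.47, adjusted p = 0.0546, edgeR). After the GC correction it was 0.14 (GC content 65.1%). POLA2, a subunit of the priming polymerase alpha, was at 37, 33.8 and 31.3 CPM in BCSC and 22.0, 8.92 and 14.6 CPM in non-BCSC. The spread was in non-BCSC, and the log2 fold change was 1.17 ± 0.31 SE (adjusted p = 0.0199, edgeR), with adjusted p of 0.0649, 0.0577 and 0.0616 without BCSC 1, BCSC 2 or non-BCSC 3, and 0.94 without non-BCSC 2.

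FEN1, which trims the flaps of Okazaki fragments, was at 92.2, 69.3 and 65.0 CPM in BCSC and 22.6, 34.7 and 25.5 CPM in non-BCSC. It was 2.73-fold higher (log2 fold change 1.45 ± 0.21 SE, adjusted p = 0.00176, edgeR) and passed under every alternative. LIG1, the ligase that seals the fragments, had 0.86 ± 0.25 SE (adjusted p = 0.0318, edgeR) but -0.03 after the GC correction (GC content 58.3%), and it did not pass without BCSC 1 (0.60), BCSC 2 (0.97), non-BCSC 2 (0.75) or non-BCSC 3 (0.92). POLE2, a subunit of polymerase epsilon, had 0.80 ± 0.26 SE, and with the lowest GC content of the members, 38.5%, it rose to 2.04 after the GC correction. Without any library but non-BCSC 1 it did not pass (adjusted p of 0.0843 to 0.131, edgeR).

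The small subunits of the clamp loader RFC, like the MCM ring, went in both directions. RFC5 was at 57.5, 57.0 and 52.4 CPM in BCSC and 25.7, 21.4 and 23.1 CPM in non-BCSC, with a small spread in both groups (log2 fold change 1.25 ± 0.16 SE, adjusted p = 0.00114, edgeR). It shares 186 exonic bases with WSB2 on the opposite strand, whose counts were 280% of its own, and whether reads were counted by strand is not stated. RFC3 was at 104, 110 and 122 CPM in BCSC and 74.7, 65.2 and 72.6 CPM in non-BCSC (0.66 ± 0.12 SE, adjusted p = 0.00512, edgeR). RFC5 and RFC3 passed under every alternative.

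RFC4 was at 83.8, 87.5 and 87.9 CPM in BCSC and 121, 114 and 117 CPM in non-BCSC. All BCSC libraries were lower, and the spread was under 4 CPM in both groups (SD 2.25 and 3.77). The log2 fold change was -0.44 ± 0.11 SE (adjusted p = 0.0142, edgeR), -0.68 after removal of the background and 0.26 after the GC correction (GC content 43.9%, adjusted p = 0.213, edgeR). It missed the threshold without BCSC 1, BCSC 2, non-BCSC 1 or non-BCSC 2 (adjusted p = 0.0592, 0.0829, 0.0564 and 0.0521, edgeR), at -0.36 to -0.42. RFC2 had 0.32 ± 0.18 SE and its groups overlapped. Inside each library, RFC5 had 0.687, 0.651 and 0.597 counts per RFC4 count in BCSC and 0.211, 0.188 and 0.198 in non-BCSC, and the ratios of RFC3 and RFC2 to RFC4 were higher in all BCSC libraries too. With the GC correction RFC2 was at -0.03, below RFC4, so the order of these 2 genes turned.

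PCNA, the clamp itself and the fork gene with the highest level per kb of transcript (167 ± 4.86 CPM per kb in BCSC and 159 ± 1.26 in non-BCSC, SD, n = 3), hardly differed. It was at 217, 217 and 206 CPM in BCSC and 204, 201 and 203 CPM in non-BCSC. The log2 fold change was 0.08 ± 0.09 SE (adjusted p = 0.556, edgeR), and its sign turned under 4 alternatives, between -0.16 after removal of the background and -0.02 with RLE size factors, while after the GC correction it passed at 0.67 (GC content 44.4%, adjusted p = 0.0101, edgeR). CLSPN (claspin, a fork protein that relays the replication checkpoint) had 0.52 ± 0.13 SE (adjusted p = 0.0168, edgeR), and missed the threshold without BCSC 2 (0.49) or non-BCSC 3 (0.44). RPA2 (single-strand binding) had 0.70 ± 0.25 SE (adjusted p = 0.0593, edgeR), and passed without non-BCSC 1 (1.05). PRIM1, the primase, had 0.29 ± 0.17 SE and overlapping groups. PRIM1 (GC content 41.2%) passed after the GC correction at 1.32 (adjusted p = 0.000528, edgeR) and RPA2 at 0.85 (adjusted p = 0.0218, edgeR).

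Nucleotide supply genes were higher in 2 of 3 cases, both under a fold of 2. RRM2, the regulated subunit of ribonucleotide reductase, was at 421, 493 and 485 CPM in BCSC and 303, 309 and 309 CPM in non-BCSC. It was the most counted of the 41 members in BCSC, and passed under every alternative (log2 fold change 0.60 ± 0.10 SE, adjusted p = 0.00262, edgeR). TYMS, thymidylate synthase, was at 345, 316 and 300.0 CPM in BCSC and 230, 242 and 232 CPM in non-BCSC (0.45 ± 0.10 SE, adjusted p = 0.00897, edgeR) and had the highest level per kb of all members in BCSC (200.2 ± 14.2 CPM per kb in BCSC and 146 ± 3.36 in non-BCSC, SD, n = 3). After the GC correction and after removal of the background it was 0.21 and did not pass (adjusted p = 0.275 and 0.116, edgeR). RRM1, the large subunit of the reductase, had 0.30 ± 0.12 SE and did not pass (adjusted p = 0.0771, edgeR), though it did after the GC correction at 0.90 (adjusted p = 0.00639, edgeR). The counts of RRM2 per RRM1 count overlapped between the groups.

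Of the chromatin and histone genes, CHAF1A, the large subunit of CAF-1, was at 74.6, 45.3 and 49.3 CPM in BCSC and 29.4, 23.3 and 22.0 CPM in non-BCSC. The groups were well apart (log2 fold change 1.18 ± 0.23 SE, adjusted p = 0.00618, edgeR). The value was 0.93 without BCSC 1, still past the test, and 0.38 after the GC correction (adjusted p = 0.109, edgeR). CHAF1B, its partner subunit, had 0.22 ± 0.15 SE and did not pass (adjusted p = 0.30, edgeR), and at 0.36 after the GC correction it was close to CHAF1A. SLBP, which binds the stem-loop of histone mRNAs and had the highest level per kb of these genes (43.2 ± 3.30 CPM per kb in BCSC and 38.8 ± 3.52 in non-BCSC, SD, n = 3), was at 76.5, 83.1 and 72.2 CPM in BCSC and 76.2, 70.1 and 63.5 CPM in non-BCSC. Its groups overlapped (0.14 ± 0.13 SE, adjusted p = 0.437, edgeR).

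**Figure D3:**
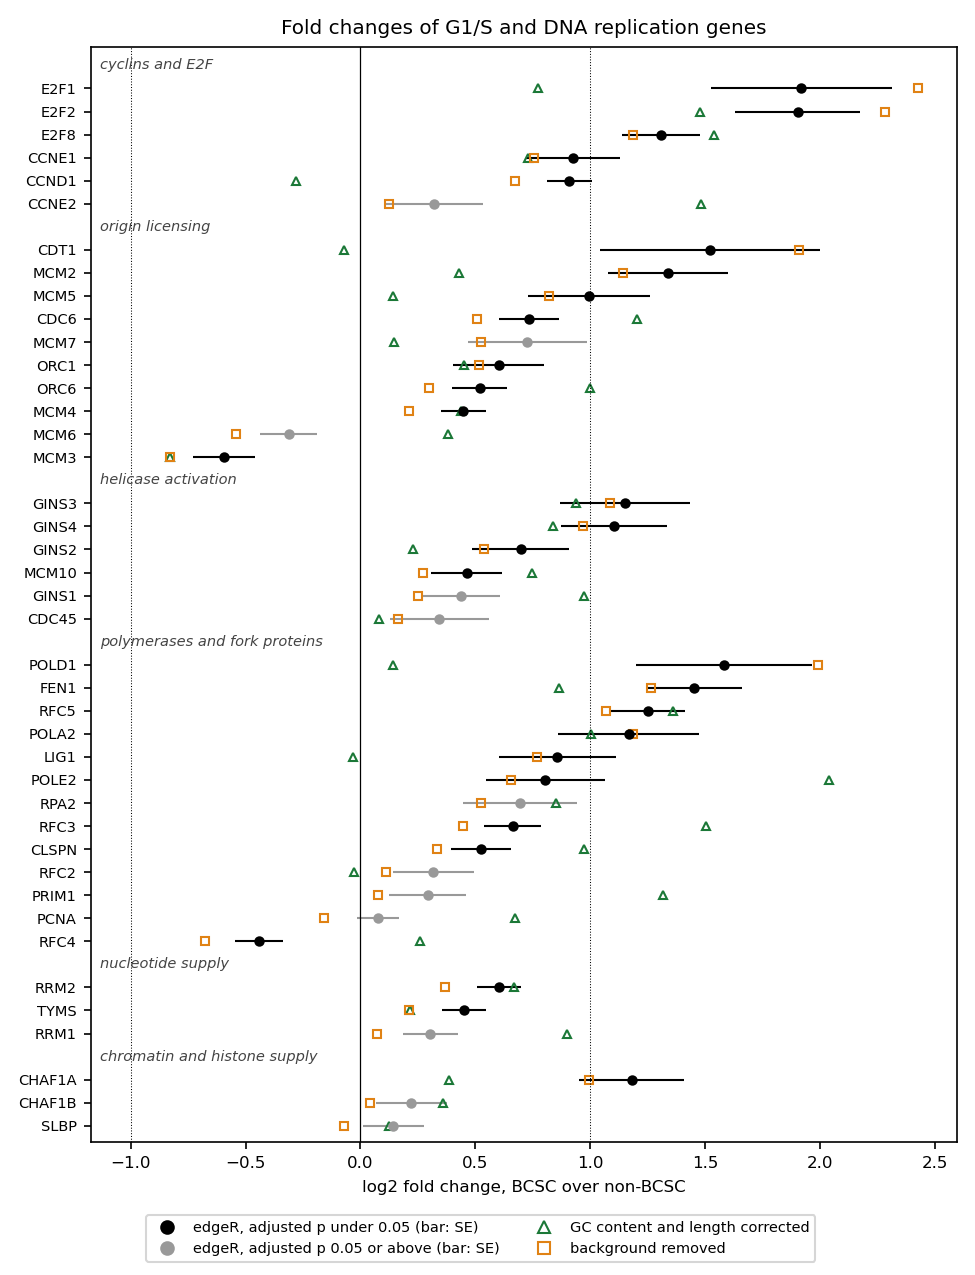
Log2 fold change of each member, BCSC over non-BCSC, from edgeR (circles, black where the adjusted p was under 0.05, with SE as bars), after correction for GC content and length (triangles) and after removal of the olfactory receptor background (squares). Dotted lines mark a fold of 2; the triangles move members in both directions, with POLE2 to 2.04 and CCND1 to -0.28, while the squares stay on the side of the circles for all members except PCNA and SLBP.

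The members' fold changes followed GC content, as those of all genes did. The Spearman coefficient between log2 fold change and GC content was 0.59 over the 41 members and 0.55 over the 20442 genes tested, a description across genes that share the same 6 libraries. Of the 20 members with a GC content above 50.7%, 10 were called and 16 were higher, with a median log2 fold change of 1.05. Of the 21 at or under it, 2 (E2F8 and RFC5) were called and 11 were higher, with a median of 0.46. After the correction for GC content and length these medians were 0.22 and 0.90, so the order of the sets turned, and the coefficient was -0.63 over the members while it was -0.02 over all genes. The correction was fitted over all genes, and over the members it overshot: a positive coefficient became a negative one of similar size. Corrected values of members of low or high GC content share this limit. Which value of a member is nearer the true difference was not tested.

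After the correction for GC content and length 23 members were higher and 1 (MCM3) was lower, against 21.3% and 11.0% of all genes, with 9 called higher and 0 lower against 10.2% and 9.22%. After removal of the background 17 members were higher and 3 (MCM3, MCM6 and RFC4) were lower, against 15.6% and 13.5% of all genes. Then 9 were called higher, against 10.8%. Every member is among the 10471 better counted genes, of which 27.7% were higher in the uncorrected fit, against 15.3% of all genes. Shares for the better counted genes were not worked out after either correction. How far the members exceed such genes there was therefore not tested. Of the 29 members that passed, 10 did so under every alternative in which they were tested: E2F1, E2F2, E2F8, CCNE1, CDC6, GINS4, RFC3, RFC5, FEN1 and RRM2. E2F1, E2F2 and GINS4 were not tested where a mean of at least 500 counts was asked.

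**Figure D4:**
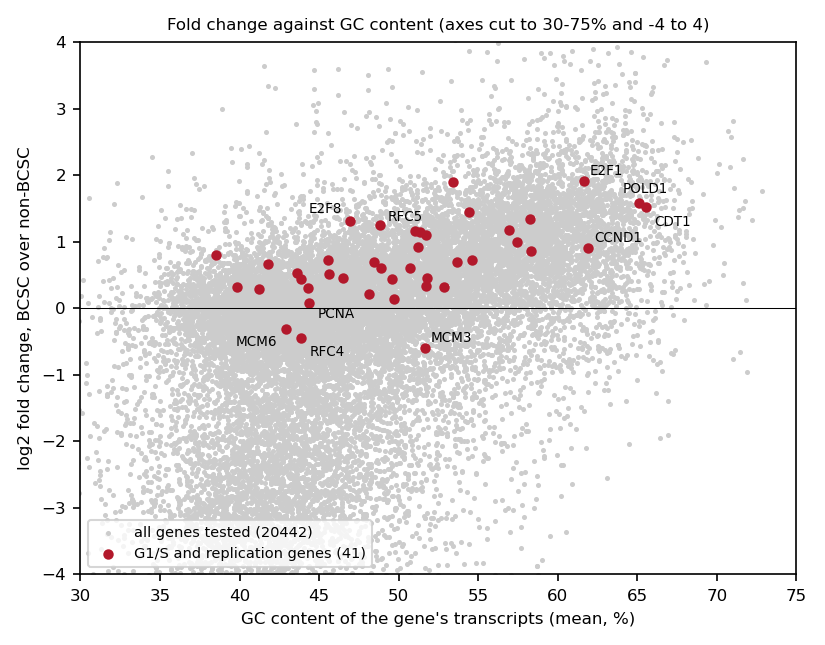
Log2 fold change, BCSC over non-BCSC, against the mean GC content of a gene's transcripts in percent, for the 20442 genes tested (grey) and the 41 members (red), with some genes outside the axes. Members of high GC content such as E2F1, CDT1 and POLD1 lie among the highest, and MCM6 and RFC4 are at 42.9% and 43.9%.

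To see whether other genes of the same pathway differed in the same way, 71 further genes were read from the same fit. Of these, 26 were higher in BCSC and 1 (NASP) was lower, 13 were called higher and 0 lower. Among the 10471 better counted genes above, 27.7% were higher, 10.2% lower and 15.1% called higher. The counts of higher and called genes were thus near or above these shares, while the count of lower genes was below its share. The median log2 fold change was 0.31, between that of the members and that of all genes, but after the GC correction the order turned, with 0.74 for these genes and 0.67 for the members. Among the cyclin, CDK, RB and E2F genes, 7 of 19 were higher. CDK2, the kinase partner of cyclin E, was at 99.3 ± 7.19 CPM in BCSC and 32.0 ± 4.20 CPM in non-BCSC (SD, n = 3; log2 fold change 1.63 ± 0.15 SE, adjusted p = 0.000230, edgeR), and E2F7, a repressor related to E2F8, was at 216 ± 14.5 and 62.1 ± 15.8 CPM (1.80 ± 0.17 SE). For both, the SE was below that of E2F1 (0.39) and E2F2 (0.27).

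Of the 16 other licensing, firing and helicase genes, 6 were higher, and those with the smallest p were DONSON, which helps to start the helicase (1.08 ± 0.16 SE), and TOPBP1, an activator of origin firing (0.59 ± 0.10 SE). Of the 14 other polymerase, clamp loader and RPA genes, 5 were higher, POLE3 (0.63 ± 0.14 SE) and POLD2 (1.26 ± 0.31 SE), subunits of polymerases epsilon and delta, having the smallest p; POLD2 did not pass without BCSC 1 (1.01), non-BCSC 2 (1.14) or non-BCSC 3 (1.08), nor after the GC correction (0.32). Of the 12 fork and chromatin assembly genes, 4 were higher, with the smallest p for TIMELESS, a fork protection protein (0.84 ± 0.18 SE), and ASF1B, a histone chaperone (1.18 ± 0.26 SE; 0.21 after the GC correction). NASP, a chaperone of histone H3, fell from 369 ± 30.1 CPM in non-BCSC to 246 ± 11.9 CPM in BCSC (log2 fold change -0.59 ± 0.10 SE, adjusted p = 0.00360, edgeR), and did not pass after the GC correction (-0.30). Of the 10 nucleotide genes, 4 were higher, with the smallest p for CTPS1, CTP synthase (1.22 ± 0.17 SE), and TK1, thymidine kinase (1.87 ± 0.27 SE), which was at 36.4 ± 8.67 CPM in BCSC and 9.96 ± 2.18 CPM in non-BCSC.

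As a reference outside S phase, 10 mitotic genes were read as well. Only AURKA and AURKB, the Aurora kinases, passed the test among these 10 (log2 fold changes 1.13 ± 0.14 and 1.53 ± 0.32 SE). By the same criterion 15.3% of all genes were higher, and 27.7% of those with a mean of at least 100 counts. The proliferation marker MKI67 had 0.13 ± 0.11 SE, CCNB1 (cyclin B1) -0.07 ± 0.10 SE and TOP2A (topoisomerase II alpha) -0.13 ± 0.09 SE. Summed, the mitotic genes overlapped between the groups, at 5540 to 6297 CPM in BCSC and 5406 to 5998 CPM in non-BCSC, while the summed members did not. The mitotic sums mostly reflect MKI67, TOP2A and CENPF, which held 2087, 1452 and 1102 of 5892 CPM in BCSC 1. The difference between the lists was not tested. It was not kept after the GC correction: 8 of the 10 mitotic genes were then higher, with a median log2 fold change of 0.75 against 0.67 for the members. That correction overshot over the members (Spearman coefficient of -0.63 with GC content), and whether it did so for the mitotic genes was not worked out. Of the 71 other pathway genes, 47 were then higher. The share of all genes higher after this correction was 21.3%, and that of the better counted genes was not worked out.

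**Figure D5:**
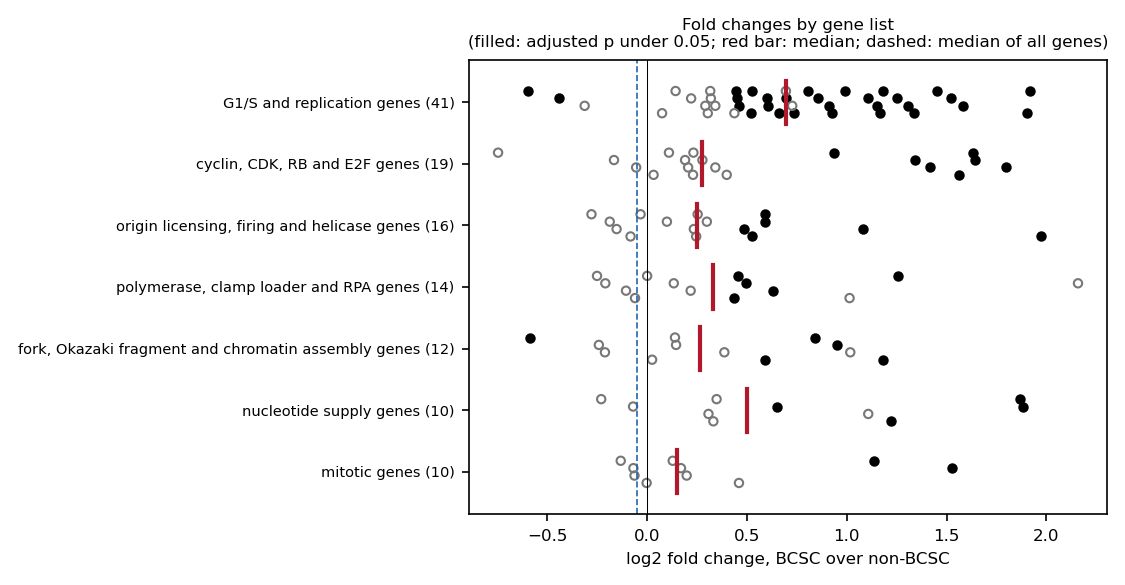
Log2 fold change, BCSC over non-BCSC, of the members, of the other pathway genes by role and of the mitotic genes, each point 1 gene (filled where the edgeR adjusted p was under 0.05), with the median of each list as a red bar and that of all genes tested, -0.05, as a dashed line. The members' median of 0.70 lies to the right of all the other bars; after the GC correction, not drawn here, it was 0.67, below the 0.74 of the other pathway genes and the 0.75 of the mitotic genes.

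The file holds transcripts, so the members were also read transcript by transcript. Their 382 transcripts include 84 with 0 counts in all libraries and 132 that passed the filter. At this level replicates varied far more (biological coefficient of variation 1.02 against 0.453 for gene sums). Of the 132, 1 was called higher and 0 lower (edgeR), against 0.597% and 0.187% of the 45898 transcripts tested. At an unadjusted p under 0.05, 26 were higher and 5 lower, where 17.4% of all transcripts reached such a p in either direction. DESeq2 called 9 higher and 2 lower, against 3.58% and 3.20% of the 82886 transcripts it tested. That set is larger than the one edgeR tested, so the 132 are not its base. How many member transcripts DESeq2 tested was not worked out.

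The called transcript was CDC45-201, with 514, 463 and 402 counts in the BCSC libraries and 0 in each non-BCSC library, at least 105-fold higher against a floor of 3 counts per library (adjusted p = 0.0462, edgeR). Its counterpart CDC45-205 had 0 counts in each BCSC library and 316, 98 and 234 in non-BCSC, at least 103-fold lower (adjusted p = 0.0558, edgeR). Both are coding transcripts of a gene whose sum did not differ, and the call of CDC45-201 was lost without any 1 library and with a replicate block. In 31 of the 41 genes the most counted transcript was the same in both groups. In 10 it was not: CDC45, GINS1, GINS4, LIG1, MCM10, MCM3, ORC6, POLA2, POLD1 and POLE2. For MCM3 the leading transcript was MCM3-206 in BCSC (50.4% of the gene's counts) and MCM3-205 in non-BCSC (56.2%), and for POLA2 it was POLA2-214 (22.5%) and POLA2-203 (65.8%). The remaining leaders, BCSC first, were GINS1-212 and GINS1-201, GINS4-201 and GINS4-203, LIG1-233 and LIG1-227, MCM10-202 and MCM10-206, ORC6-201 and ORC6-204, POLD1-210 and POLD1-209, and POLE2-206 and POLE2-201. How estimated counts were divided among transcripts that share exons is not stated, and of these transcripts edgeR called CDC45-201 alone, while DESeq2 also called CDC45-205.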

How the data were processed

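LncRNA sequencing of total RNA was performed in 6 libraries of PTX-resistant MDA-MB-231 (3 BCSC, 3 non-BCSC), grouped by their titles. For non-BCSC the line and the resistance are taken from the study's text, as these titles do not give them. Per the labels, cDNA was made with random primers and the dUTP-marked second strand was removed. The authors trimmed the reads and aligned them with HISAT2. The study's methods name hg19, whereas the submitters' processing notes name hg38, featureCounts and DESeq2. The deposited values are estimated counts for each transcript, in whole numbers and without normalization. Of 252618 transcripts, 249616 (98.8%) matched GENCODE release 44 by identifier and were summed into 61014 genes, 2998 were unmatched and 4 with assembler-made identifiers were left out. Matched transcripts held 99.66 to 99.77% of the counts. Totals were 9898588 to 21215352 per library.

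The groups were compared with edgeR 4.0.16 under R 4.3.3 (TMM, filterByExpr, robust quasi-likelihood fit, group as the only term), adjusted by Benjamini-Hochberg over all features tested. A gene passed at an adjusted p under 0.05 and was called with a fold above 2 as well, after the study's RNA-seq criterion. Values are CPM on TMM library sizes. The SE is that of the log2 fold change. Levels per kb divide each transcript's CPM by its length. The fit was tested on simulated counts with less spread between replicates than these data. They held no difference in GC content or background between the groups, so that test does not cover those features.

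The members and the lists of other pathway, mitotic and marker genes were chosen with earlier results of these data known. Values per library are given for members called, the member with the highest level per kb in each role and up to 3 members per role with the smallest p among those that passed. MCM3, MCM6 and RFC4 were added after their values were seen. Other pathway genes named are up to 2 per role and direction with the smallest p. The minimum mean of 100 counts for the background was also set after the data were seen.

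The alternatives tried were DESeq2 1.42.0, RLE size factors, no filter, at least 10 counts in every library, a mean of at least 500 counts, a replicate block, each library left out, a loess correction for GC content and length (span 0.3), removal of a background scaled on 407 olfactory receptor genes, thinning to the smallest library, and no minimum fold. Reads of a gene and of one overlapping it on the opposite strand may not be told apart: 19 members share exonic bases with such a gene, and for 5 (CCNE2, CHAF1A, GINS2, RFC4 and RFC5) that gene had at least 10% of the member's counts. Processed pseudogene copies had at most 1.76% of a member's counts.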

Additional observations from a re-analysis of the deposited data

How the results depend on the processing

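The number of members called higher (12) was 5 when genes were kept from a mean of 500 counts up, where 29 members were left, and 27 with no minimum fold, with 2 lower. At an adjusted p under 0.05, 15 members were higher with the mean of at least 500 counts and 17 after removal of the background, and 1 was lower with no filter and after the correction for GC content and length. Leaving out 1 library gave 6 to 16 members called higher (6 without BCSC replicate 1), 17 to 27 higher and 0 to 2 lower at the adjusted p, and 0 called lower each time. Fewer libraries enter these fits. Of the other pathway genes (13 called higher), 7 were called with the mean of at least 500 counts, 22 after the GC correction and 26 with no minimum fold, where 1 was lower. At the adjusted p, 17 and 47 of them were higher under the first of these settings and the GC correction, and 7, 7 and 8 were lower with at least 10 counts in every library, a mean of at least 500 counts and removal of the background. Leaving out 1 library gave 11 to 17 called higher, 19 to 29 higher and 1 lower. Among member transcripts (1 higher, 0 lower), DESeq2 called 9 higher and 2 lower, at least 10 counts in every library gave 5 higher, and the replicate block and leaving out any 1 library gave 0. The cause of these changes was not tested.

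The sign turned for CCND1 (-0.28), CDT1 (-0.0707), LIG1 (-0.0316), RFC2 (-0.0285), MCM6 (0.38) and RFC4 (0.26) after the GC correction. It turned for PCNA with RLE size factors (-0.0161), at least 10 counts (-0.0753), a mean of at least 500 counts (-0.0798) and removal of the background (-0.16). For SLBP it turned under the last 3 of these settings (-0.00616, -0.0102 and -0.0737). Over 603 values of single members under an alternative, 481 kept direction and side of the threshold, 83 lost and 26 gained the threshold, and 13 turned sign. RLE size factors moved the median of all genes from -0.05 to -0.14, and the GC correction and the background removal moved it to 0.11 and 0.09.

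Whether replicate numbers pair the libraries could not be settled with so few libraries. Deviations of same-numbered libraries correlated at 0.179, 0.0143 and 0.219, and those of different numbers at -0.20 to 0.0544. BCSC 2 correlated better with non-BCSC 1 (0.0544) than with its own number. With the replicate block 12 members were called higher, 31 were higher and 3 lower at the adjusted p, with MCM6 now among the lower genes (adjusted p = 0.0468, edgeR). Groups of 3 libraries and a biological coefficient of variation of 0.453 limit what could be called. Whether the GC content of a transcript or the background signal alone sets a member's difference cannot be told apart from the sorted fraction, since both moved with it.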

Other observations

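All 13 other pathway genes called higher in BCSC are given here, those beyond the ones already named being chosen after their values were seen. Beside CDK2, E2F7, DONSON, POLD2, ASF1B, TK1 and CTPS1 they were CDK4 and CDK6, the kinases of cyclin D (log2 fold changes 1.42 ± 0.23 and 1.34 ± 0.13 SE), CDC25A, the phosphatase that activates CDK2 (1.64 ± 0.32 SE), E2F4 (1.56 ± 0.30 SE), the helicase RECQL4 (1.97 ± 0.46 SE) and CAD, which starts pyrimidine synthesis (1.88 ± 0.27 SE). CDK6 was the most abundant of these 6, at 677 CPM in BCSC and 267 CPM in non-BCSC. After the GC correction E2F4 and RECQL4 were both at 0.52 and did not pass (adjusted p = 0.0982 and 0.248, edgeR). CDK4, CDK6, CDC25A and CAD then passed, at 0.74 to 1.51. RECQL4 had 22 to 59 counts in the non-BCSC libraries, and among fits without 1 library its adjusted p reached 0.0694 (edgeR). The pocket proteins that hold E2F in check did not pass the test in the uncorrected fit, with log2 fold changes of 0.21 ± 0.14 SE for RB1, 0.19 ± 0.16 SE for RBL1 and -0.17 ± 0.15 SE for RBL2. After the correction for GC content and length RB1 and RBL1 passed, at 0.95 and 0.71 (adjusted p = 0.00112 and 0.0106, edgeR). GMNN (geminin, the inhibitor of CDT1) had -0.08 ± 0.17 SE, and the 4 subunits ORC2, ORC3, ORC4 and ORC5 had values between -0.28 and 0.30, none past the test. After the GC correction all 5 of these genes passed, GMNN at 0.91 and the ORC subunits at 0.86 to 1.36, so GMNN and ORC4 turned sign.

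Within each library, CHAF1A had 1.51, 0.764 and 1.04 counts per CHAF1B count in BCSC and 0.623, 0.545 and 0.499 in non-BCSC, but their log2 fold changes were close after the GC correction (0.38 and 0.36). Of the RPA subunits, RPA1 had a log2 fold change of -0.21 ± 0.14 SE and RPA3 0.00 ± 0.25 SE, against 0.70 ± 0.25 SE for RPA2, and none of the 3 passed. Corrected for GC content they were -0.16, 0.79 and 0.85, and differences between the subunits were not tested.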
